A study of Mus musculus with 14 samples.

Results

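The genes described here are 44 DNA repair genes of the mouse, taken by name and sorted into 7 classes: nucleotide excision, base excision, mismatch repair, recombination, end joining, damage signaling kinases and Fanconi genes. A gene was read where the probe annotation gives its symbol alone, and, where it has several probe sets, on the one whose level averaged highest in the 8 arrays of wild-type (WT) hematopoietic stem cells (HSC). This held for 41 of the 44 genes, which have 77 such probe sets, out of 12393 genes on the array; Lig4, Xrcc2 and Xrcc3 were not analysed here. Levels are GC-RMA values on the log2 scale, in which a difference of 1 is 2-fold. Of the 41 genes, 33 reached log2 5 on at least 2 of the 14 arrays.

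The study asked how the RNA of HSC changes as mice age and whether p53 genotype alters it. At 12 mo, HSC were taken from p53+/m mice, which carry 1 truncated p53 allele beside 1 normal allele and are described as having raised p53 activity, and from p53+/- mice, which carry 1 null allele beside 1 normal allele. WT HSC came from 4 ages (2, 6, 12 and 21 mo), and WT whole bone marrow (WBM) from mice of 2 mo. All mice were male and are labelled as C57Bl/6, and both p53 alleles are carried in every cell of the animal. By the study's methods, the aged WT mice were C57Bl/6 CD45.1, whereas the p53 mutants had reached C57Bl/6 by repeated backcrossing, so that genotype and strain background cannot be told apart where a mutant is set against WT. HSC were sorted as side population cells positive for Sca-1 and c-Kit and negative for lineage markers. Each of the 7 groups has 2 arrays, A and B; an HSC array held pooled RNA of several mice, amplified through 2 rounds of in vitro transcription, and no pooling is stated for WBM. The p-values therefore measure the spread between arrays, which for HSC is that between such pools. This spread is estimated over all groups of a fit, and with age it includes departure from the fitted trend. The labels give the age both in the title and in a separate field that reads 2 months for mice of other ages too; the title was used. Trp53 was not analysed here, so the p53 genotypes were not checked on their own transcript.

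DNA repair divides by the lesion. Nucleotide excision removes bulky adducts and ultraviolet photoproducts, base excision replaces single oxidized or deaminated bases, and mismatch repair corrects replication errors. Recombination copies a broken end from the sister chromatid after replication, while end joining ligates broken ends without a template and works throughout the cell cycle. The Fanconi genes act on crosslinks between strands, and the kinases signal damage to the cell cycle machinery. HSC of mice are mostly quiescent, and loss or weakening of several repair genes, among them Fanconi genes, Lig4 and Atm, is known to impair HSC in mice.

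HSC and marrow arrays differed as their labels say. Procr, an HSC surface receptor, read 12.78 to 14.09 on the 12 HSC arrays and 4.41 and 4.14 on the WBM arrays. Of 9 HSC markers read, 6 were at least 2-fold higher in 2 mo HSC than in WBM at an adjusted p under 0.05 by limma, against 13.3% of all genes. Those that were not were Kit (8.24 and 8.34 in 2 mo HSC, 7.74 and 7.71 in WBM), Slamf1 (4.38 and 4.98, against 4.79 and 4.65) and Mecom (3.50 and 3.65, against 3.40 and 3.31). The summed level of 6 erythroid markers was 5.14 to 5.60 in HSC and 15.74 and 15.72 in WBM, with Alas2 and Klf1 under log2 2 on every HSC array. The first principal component over the 12 HSC arrays placed WT 12 mo array A at 56.4, next to the 21 mo arrays (67.4 and 64.8), and WT 12 mo array B at -42.9, between the 2 mo arrays (-53.2 and -54.6) and the 6 mo arrays (-35.0 and -18.3). The control probe set for the 5' end of 18S ribosomal RNA also split the arrays: it read 10.91 and 10.88 on the 2 mo HSC arrays, 11.19 and 8.28 at 6 mo, 4.66 on WT 12 mo array A and 9.68 on array B, and 4.84 and 5.44 at 21 mo. In the p53+/m HSC it read 5.71 and 7.18, in p53+/- HSC 8.92 and 7.96, and in WBM 5.32 and 5.14. The part of this difference in any result below was not tested.

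**Figure D1:**
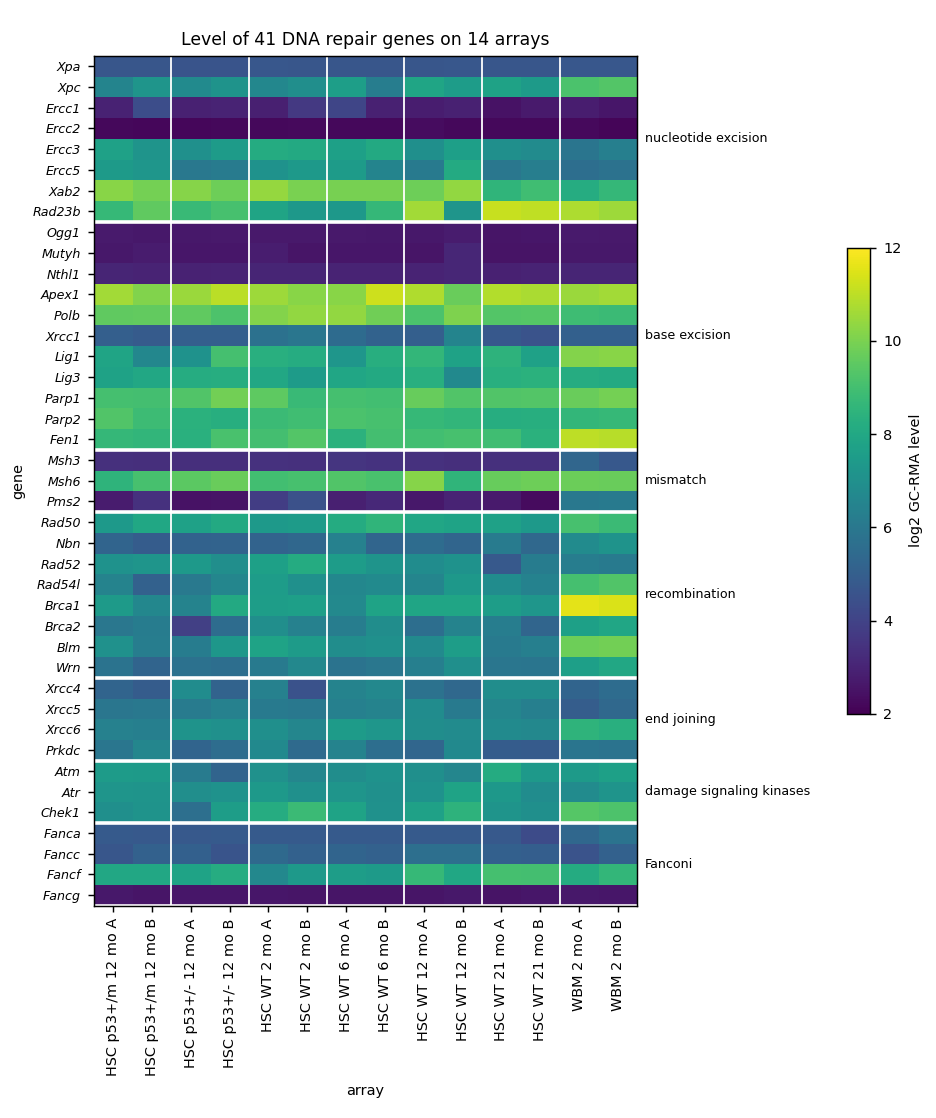
Log2 GC-RMA level (color) of the 41 DNA repair genes (rows, in 7 classes) on the 14 arrays (columns, 2 a group; HSC of both p53 genotypes, WT HSC by age, then WBM). Brca1, Blm, Rad54l, Lig1 and Fen1 are brighter on both WBM arrays than on every HSC array, Rad23b is bright at 21 mo, and Xpa, Ercc1, Ercc2, Ogg1, Mutyh, Nthl1 and Fancg stay under log2 5 throughout.

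The comparison of 2 mo HSC with 2 mo WBM gave the most calls among these genes. A gene was called where the adjusted p was under 0.05 and the difference at least 2-fold. Of the 41 genes, 13 were lower in HSC than in WBM and 4 were higher, against 10.5% of all genes lower and 13.3% higher. The median difference, HSC minus WBM, was -0.40 over the 41 genes and -0.01 over all genes. In bulk samples such as WBM, fewer cells of a type and less RNA per cell cannot be told apart.

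Recombination was the class with the most calls: 6 of its 8 genes read were lower in HSC and 1 was higher, with a class median of -1.63. Brca1, which promotes resection of broken ends, read 7.55 and 7.63 in HSC, against 11.59 and 11.42 in WBM. It was 15.1-fold lower in HSC (log2 difference -3.92, SE 0.34, adjusted p = 0.000664), and a second Brca1 probe set, near background in HSC, read 2.14 and 2.10 in HSC against 4.30 and 5.26 in WBM. The other 2 of its 4 probe sets, near background in both, differed by -0.37 and -0.0022, and the mean of all 4 differed by -1.74. Blm, a RecQ helicase that dissolves crossed strands, read 7.78 and 7.50 in HSC, against 9.78 and 9.86 in WBM. The difference was -2.18 (SE 0.25, adjusted p = 0.0018). For both genes the 2 HSC arrays lay well below the 2 WBM arrays.

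Rad54l, a motor protein of the recombination machinery, read 7.53 and 7.02 in HSC, against 9.06 and 9.29 in WBM, a difference of -1.90 (SE 0.31), and its other 2 probe sets differed by -1.91 and -1.84. Rad50 and Nbn, which with Mre11 form the complex that first binds a broken end, differed by -1.52 (SE 0.18) and -1.73 (SE 0.42). Wrn, the other RecQ helicase of the list, differed by -1.44 (SE 0.28), from 1 probe set well above background. The other probe sets of Rad50 and Wrn stayed under log2 3 on the 2 mo HSC and WBM arrays, so that these values rest on 1 probe set a gene. Brca2, a mediator of strand exchange, read 6.95 and 6.40 in HSC, against 7.67 and 7.90 in WBM, and did not pass (difference -1.11, SE 0.46, adjusted p = 0.161).

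Rad52, which anneals complementary single strands, ran the other way. It read 7.67 and 8.15 in HSC, against 6.25 and 6.07 in WBM, and was 3.35-fold higher in HSC (difference 1.75, SE 0.46, adjusted p = 0.040). A second Rad52 probe set differed by 0.91 and did not pass (adjusted p = 0.110).

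In nucleotide excision the 2 genes higher in HSC were Ercc3 and Xab2, and the one lower was Xpc. Ercc3, the XPB helicase of the TFIIH complex that opens DNA around the lesion, read 8.16 and 8.06 in HSC, against 5.88 and 6.32 in WBM (difference 2.01, SE 0.26, adjusted p = 0.0029). Xab2, which binds Xpa and takes part in transcription-coupled repair and in splicing, read 10.42 and 9.99 in HSC, against 8.20 and 8.64 in WBM (difference 1.79, SE 0.28), and its other 2 probe sets differed by 3.03 and 2.13. Xpc, which finds the lesion on DNA that is not being transcribed, read 6.63 and 6.93 in HSC, against 9.17 and 9.32 in WBM (difference -2.46, SE 0.43, adjusted p = 0.0095). For these 3 genes the HSC and WBM arrays did not overlap. Rad23b, the partner that stabilizes Xpc, read 7.82 and 7.34 in HSC, against 10.77 and 10.52 in WBM. Its difference of -3.07 did not pass in the fit over 10 WT arrays (SE 1.08, adjusted p = 0.102), and with only the 4 arrays of 2 mo in the fit the adjusted p was 0.0073. Its second probe set differed by -0.53.

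In base excision, Fen1 and Lig1 were lower in HSC and Polb was higher. Fen1, the nuclease that trims displaced flaps both in long-patch repair and on replicating lagging strands, read 9.03 and 9.33 in HSC, against 10.99 and 10.93 in WBM (difference -1.78, SE 0.25). Lig1, the ligase that seals those same strands, read 8.32 and 8.18 in HSC, against 10.14 and 10.22 in WBM (difference -1.93, SE 0.45). Polb, the polymerase that fills single-base gaps, read 10.14 and 10.37 in HSC, against 8.88 and 8.83 in WBM (difference 1.40, SE 0.32, adjusted p = 0.0257), and its other 2 probe sets differed by 2.66 and 1.70, of which the second did not pass. Of the remaining 8 genes of this class none passed: Parp1, a sensor of strand breaks, differed by -0.67 (adjusted p = 0.122), and the glycosylases Ogg1, Mutyh and Nthl1 stayed between 2.51 and 3.07 on every array.

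Both Msh3 and Pms2 of mismatch repair were lower in HSC, and both were near background there. Msh3, which takes part in recognizing larger loops, read 3.43 and 3.39 in HSC, against 5.29 and 4.74 in WBM (difference -1.61, SE 0.16), and its other 2 probe sets stayed under log2 3. Pms2, which nicks the strand to be corrected, read 3.82 and 4.49 in HSC, against 6.00 and 6.09 in WBM (difference -1.90, SE 0.27). Msh6, which takes part in recognizing single mismatches, read 8.96 and 9.09 in HSC, against 9.75 and 9.73 in WBM, and did not pass.

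The Ku heterodimer, which binds broken ends and starts end joining, had unlike values in its subunits. Xrcc6 (Ku70) read 6.98 and 6.58 in HSC, against 8.50 and 8.30 in WBM (difference -1.62, SE 0.16, adjusted p = 0.0010). Xrcc5 (Ku80) read 6.07 and 6.02 in HSC, against 4.93 and 5.39 in WBM, and did not pass (difference 0.88, SE 0.28, adjusted p = 0.0727). Neither Prkdc, the kinase that joins Ku on the break, nor Xrcc4, the partner of Lig4, passed. None of the 3 kinases passed: Chek1, which holds the cell cycle when replication stalls, read 8.18 and 8.81 in HSC, against 9.36 and 9.22 in WBM (difference -0.80, adjusted p = 0.21). Among the Fanconi genes, Fancf, an adaptor within the complex that ubiquitinates Fancd2, read 6.66 and 7.40 in HSC, against 8.14 and 8.64 in WBM (difference -1.36, SE 0.34, adjusted p = 0.0348).

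**Figure D2:**
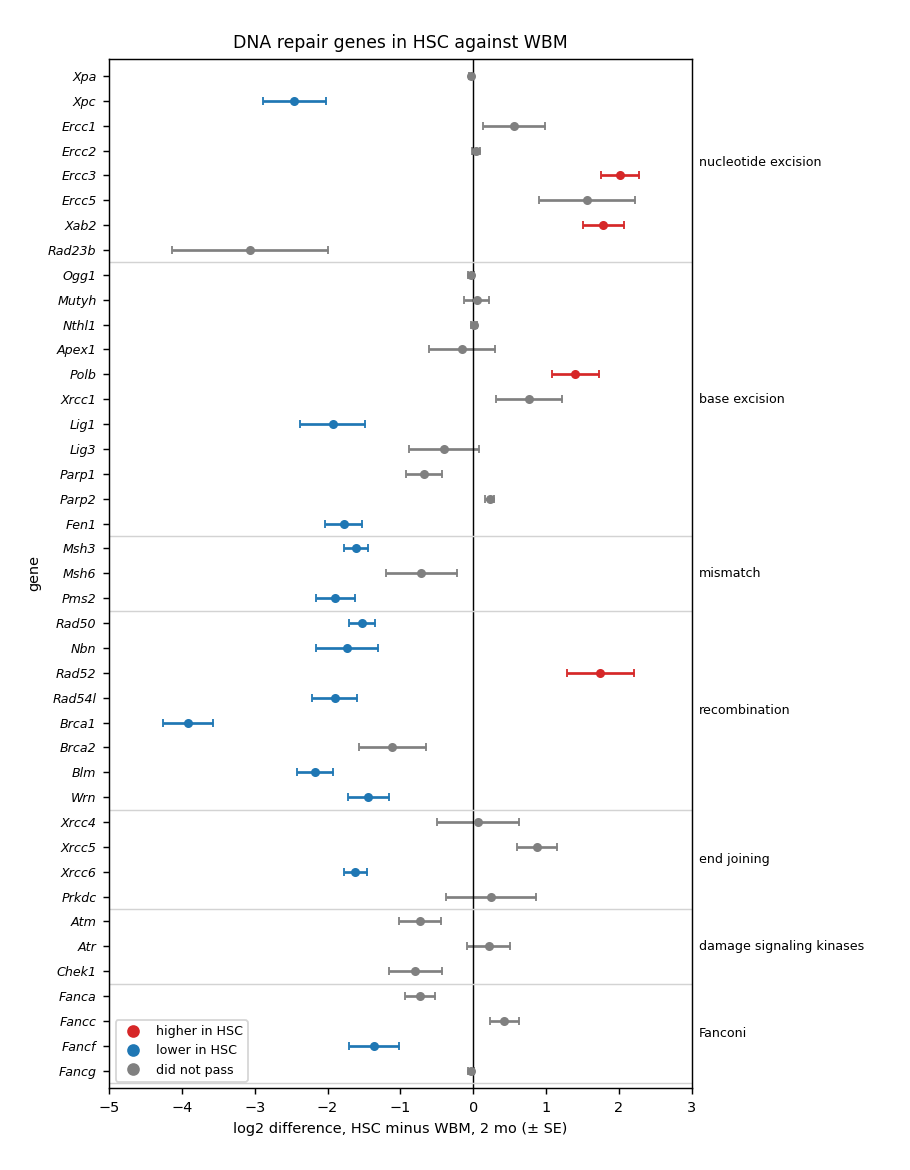
Log2 difference, HSC minus WBM at 2 mo (x axis, ± SE), for the 41 DNA repair genes (y axis, by class), with genes higher in HSC in red, genes lower in HSC in blue and genes that did not pass in grey. Brca1 lies farthest to the left at -3.92 and Ercc3 farthest to the right at 2.01.

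Whichever of the 4 arrays compared was left out, 2 of the 4 calls higher in HSC held, Ercc3 and Xab2, and 8 of the 13 lower, Fen1, Msh3, Pms2, Rad50, Rad54l, Brca1, Blm and Xrcc6. Polb, Rad52, Lig1 and Nbn lost their calls without any one of these 4 arrays, Fancf without HSC array A or either WBM array, and Xpc and Wrn without HSC array A or WBM array B. With all probe sets of a gene averaged, Msh3, Rad50, Wrn and Fancf differed by less than 2-fold.

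The WBM arrays were also set against all 12 HSC arrays, of every age and genotype, with no test. All 12 HSC arrays lay below both WBM arrays for 15 of the 41 genes, against 18% of all genes, and above both for 4, against 16.3%. Of the 8 recombination genes 7 were below, all but Rad52, and the widest gap was that of Brca1, whose 12 HSC arrays ran from 6.48 to 8.08. Chek1 and Fanca, a subunit of the Fanconi core complex, were below as well, at 5.65 to 8.81 and 4.29 to 4.84 in HSC, against 9.22 to 9.36 and 5.33 to 5.80 in WBM. Ercc3, Polb, Ercc5 (the XPG nuclease) and Xrcc5 were the 4 above.

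WBM also held far more RNA of dividing and differentiated cells. Of 25 cell cycle genes, 23 were read, and 19 were lower in HSC and none higher, against 10.5% of all genes lower and 13.3% higher. The list had a median difference of -3.04. Its summed level was 14.33 and 14.35 on the 2 mo HSC arrays against 16.48 and 16.47 on the WBM arrays. Mki67, for example, averaged 10.58 in 2 mo HSC and 14.14 in WBM. All 9 neutrophil markers and all 6 erythroid markers read were lower in HSC, the neutrophil markers with a summed level of 10.45 and 9.60 in HSC, against 17.31 and 17.38 in WBM. Of the other lists, 5 of 6 monocyte, 4 of 7 B lineage, 1 of 6 megakaryocyte and 0 of 4 T cell markers were lower in HSC. The monocyte marker Cd14 was higher in HSC (8.05 and 8.71, against 2.23 and 2.42 in WBM). The part of these differences in the repair genes' values was not tested.

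Repair genes outside the 44 were read as well. Of 98 listed, 66 were read. In HSC 18 of these (27.3%) were lower than in WBM, against 10.5% of all genes. Another 4 (6.06%) were higher, a smaller share than the 13.3% of all genes. Those lower included the damage kinase Chek2 (difference -2.27) and, from replication checkpoint signaling, Topbp1 (-1.93), Timeless (-1.83) and Tipin (-2.03). Also lower were the mismatch exonuclease Exo1 (-2.73), the single-strand binding subunits Rpa1 (-1.07), Rpa2 (-1.25) and Rpa3 (-2.81), and the oxidized-base glycosylase Neil3 (-3.86). So were Fancl (-2.77) and Usp1 (-1.72), which add and remove ubiquitin in the Fanconi pathway. The 4 higher were Trp53bp1 (2.55), which favors end joining over recombination, Ddb2 (2.87), which hands photoproducts to Xpc, and the translesion genes Polk (2.95) and Mad2l2 (2.74).

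E2F factors drive many genes of the S phase, and p53 acts through its own response element, so the promoters of the repair genes were searched for both motifs in RefSeq windows of GRCm38.p6, from 250 bases before a gene's start to 50 after. Windows were found for 34 of the 41 genes; Xpc, Ercc3, Polb, Rad50, Nbn, Wrn and Prkdc had none. Some genes have more than 1 window, and a gene was counted where any of them had a match. The letters TTTNNCGC, on either strand, were present for 8 of the 34 genes (23.5%), against 5.93% of 27025 genes. The 8 were Brca2, Ercc5, Fancg, Lig1, Msh3, Msh6, Nthl1 and Xrcc6. By their call in HSC against WBM, 3 of 9 genes lower in HSC, 0 of 2 higher and 5 of 23 not called had a match, and so had 7 of 21 cell cycle genes. The p53 half-site, searched by its published consensus, was present for 3 of the 34 genes (8.82%), Fanca, Fancg and Fen1, against 9.55% of all genes. A match is only a run of letters, and no binding was measured. The 250 bases before the start are shown for Msh3 and Xrcc6, which were lower in HSC and carry the letters there. They are also shown for Brca2, whose 12 HSC arrays all lay below WBM. Capitals mark the matches, of which the 2 in Msh3 lie on opposite strands and overlap. Ercc5, Fancg and Nthl1 also carry the letters before the start and are not shown. All 12 HSC arrays of Ercc5 lay above both WBM arrays, and those of Fancg and Nthl1 overlapped them. Msh3 is at chr13:92355004-92355253 on the minus strand, Xrcc6 at chr15:82016119-82016368 and Brca2 at chr5:150522371-150522620, both on the plus strand, and each is written in the direction of its gene.
Msh3: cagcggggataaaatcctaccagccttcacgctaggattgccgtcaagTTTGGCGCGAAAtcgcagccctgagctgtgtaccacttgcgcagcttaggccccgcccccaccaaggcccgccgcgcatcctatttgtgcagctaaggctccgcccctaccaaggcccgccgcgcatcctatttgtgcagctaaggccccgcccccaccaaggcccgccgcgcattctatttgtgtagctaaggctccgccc
Xrcc6: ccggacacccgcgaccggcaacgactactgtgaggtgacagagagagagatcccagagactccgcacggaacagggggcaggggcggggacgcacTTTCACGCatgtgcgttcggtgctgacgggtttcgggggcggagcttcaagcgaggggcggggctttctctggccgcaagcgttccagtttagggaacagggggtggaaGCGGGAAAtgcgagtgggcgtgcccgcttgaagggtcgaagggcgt
Brca2: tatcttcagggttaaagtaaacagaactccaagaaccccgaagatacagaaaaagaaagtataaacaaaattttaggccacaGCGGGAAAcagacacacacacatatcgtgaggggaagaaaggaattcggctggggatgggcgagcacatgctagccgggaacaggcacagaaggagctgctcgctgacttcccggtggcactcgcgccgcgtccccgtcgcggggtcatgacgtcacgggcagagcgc

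The age comparison asked which repair genes differ between the oldest and youngest WT HSC, from a quadratic trend over the 8 arrays of 2, 6, 12 and 21 mo. Of the 41 genes 1 rose and 1 fell, against 1.45% of all genes that rose and 2.03% that fell. At an unadjusted p under 0.05 and at least 2-fold, 2 of the 41 were higher and 5 lower, against 6.68% of all genes higher and 7.72% lower. The median difference of the 41 genes, 21 mo minus 2 mo, was -0.08, and that of all genes -0.02; 68.3% of the 41 genes and 67.3% of all genes were negative. These results use the same 2 mo HSC arrays as the comparison with WBM, so the 2 sets of values are not independent.

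Fancf was the gene that rose. It read 9.05 and 9.01 at 21 mo, against 6.66 and 7.40 at 2 mo, with 7.56 and 7.45 at 6 mo and 8.72 and 7.97 at 12 mo between them. The 21 mo arrays were the highest of the 8, and the fitted rise was 4.12-fold (log2 difference 2.04, SE 0.30, adjusted p = 0.0331). WBM of 2 mo read 8.14 and 8.64, below the 21 mo HSC. The second Fancf probe set read under log2 3 at 2 and 21 mo, and its difference was 0.01 (SE 0.05).

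Ercc3 was the gene that fell. It read 6.97 and 6.84 at 21 mo, against 8.16 and 8.06 at 2 mo, with 7.69 and 8.06 at 6 mo and 6.99 and 7.64 at 12 mo between them. The 21 mo arrays were the lowest of the 8, and the fitted fall was 2.38-fold (log2 difference -1.25, SE 0.22, adjusted p = 0.0452). Its 21 mo values were still above both WBM arrays (5.88 and 6.32).

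Without both 12 mo arrays, which stood apart from each other, Fancf differed by 2.00 (adjusted p = 0.0279) and Ercc3 by -1.21 (adjusted p = 0.0242). Both calls were lost without any one of the 2, 6 or 21 mo arrays: the adjusted p then ran from 0.0681 to 0.132 for Fancf and from 0.0791 to 0.191 for Ercc3.

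Several other genes of nucleotide excision had large differences that missed the threshold. Rad23b read 11.17 and 11.06 at 21 mo, against 7.82 and 7.34 at 2 mo, but 10.60 on 12 mo array A and 7.21 on array B. Its difference was 3.52 (SE 1.01, adjusted p = 0.121), and without 12 mo array B it was 3.84 (adjusted p = 0.0275). The second Rad23b probe set averaged 7.94 ± 0.09 at 21 mo, against 5.84 ± 0.04 at 2 mo (SD, n = 2 each), and passed (difference 2.21, SE 0.31, adjusted p = 0.0305). The 12 mo arrays of Rad23b split the way the 18S control did (4.66 on array A and 9.68 on array B). In the called genes Fancf (8.72 on array A and 7.97 on array B) and Ercc3 (6.99 and 7.64), array A was also the nearer to the 21 mo values. The part of that control's difference in these genes was not tested. Xab2 read 8.53 and 8.92 at 21 mo, against 10.42 and 9.99 at 2 mo (difference -1.34, SE 0.29, adjusted p = 0.0656). Its 6 other WT HSC arrays lay between 9.79 and 10.42, so that the 21 mo arrays were the lowest, and its other 2 probe sets differed by -1.94 and -1.19.

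In the other classes Rad52 had the largest negative difference, -2.30 (SE 0.44, adjusted p = 0.0538). It read 4.81 and 6.22 at 21 mo, against 7.67 and 8.15 at 2 mo, with 6.86 to 7.52 at 6 and 12 mo. The 21 mo arrays were the lowest of the 8 although they differed widely from each other, and the second Rad52 probe set differed by -0.46. Blm read 6.11 and 6.30 at 21 mo, against 7.78 and 7.50 at 2 mo (difference -1.23, SE 0.34, adjusted p = 0.110). Pms2 read 2.72 and 2.29 at 21 mo, against 3.82 and 4.49 at 2 mo, all near background (difference -1.48, adjusted p = 0.0686). The remaining genes with the largest difference of their class were Polb (-0.96, adjusted p = 0.154), Prkdc (-1.14, adjusted p = 0.360) and Chek1 (-1.05, adjusted p = 0.365). Prkdc read 4.91 and 4.88 at 21 mo, against 6.74 and 5.44 at 2 mo, where the 2 replicates lay far apart. Brca1, with the widest gap between HSC and WBM, read 7.56 and 7.23 at 21 mo and 7.55 and 7.63 at 2 mo.

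**Figure D3:**
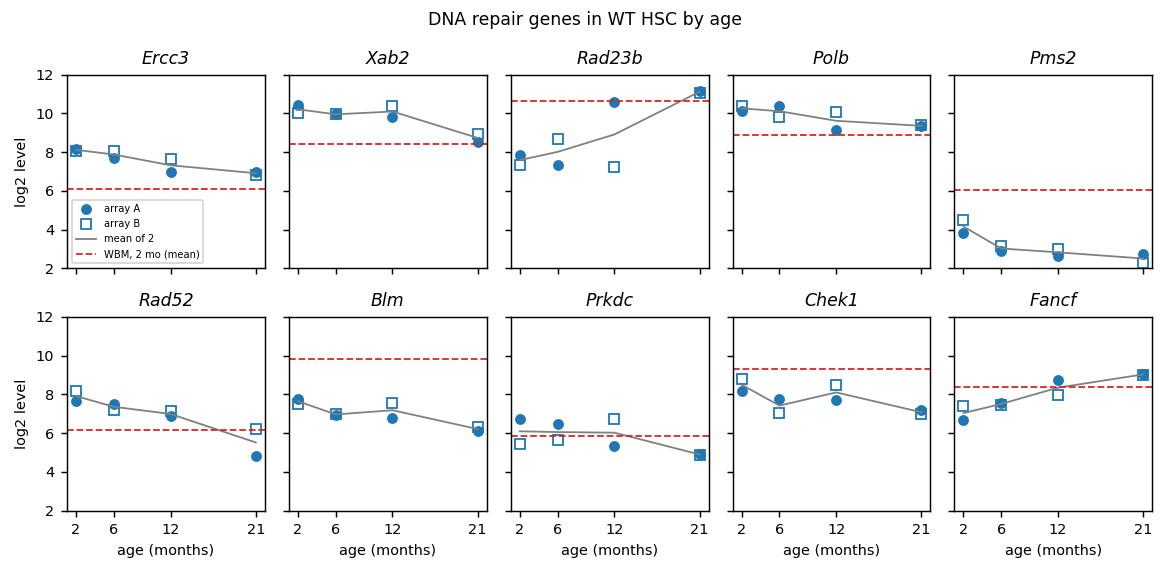
Log2 level (y axis) of 10 DNA repair genes in WT HSC against age in months (x axis), with array A as filled circles, array B as open squares, the mean of 2 arrays as a grey line and the mean of the 2 WBM arrays of 2 mo as a dashed red line. Fancf climbs to 9.05 and 9.01 at 21 mo, Ercc3 declines to 6.97 and 6.84, and the 2 arrays of Rad23b at 12 mo lie at 10.60 and 7.21.

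Markers of other cell types moved with age in these arrays, on which 1.45% of all genes rose and 2.03% fell. Of 6 monocyte markers 4 rose, with a summed level of 11.73 and 11.83 at 21 mo against 10.87 and 10.90 at 2 mo, and of 9 neutrophil markers 2 rose, with a summed level of 11.92 and 10.49 at 21 mo against 10.45 and 9.60 at 2 mo; the neutrophil elastase gene Elane stayed at 2.18 to 2.31 on the 8 arrays. Of 7 B lineage markers 1 fell, Cd79b, with a summed level of 6.29 and 5.96 at 21 mo against 7.99 and 8.22 at 2 mo. None of 6 erythroid, 4 T cell and 6 megakaryocyte markers passed by limma, while 1 of 9 HSC markers rose. Of 23 cell cycle genes 2 fell, Mki67 and Mcm7, with a list median of -0.26. The part of these markers in the repair genes' values was not tested. Of the 66 repair genes outside the 44, none passed in either direction by limma, with 0 higher and 6 lower at an unadjusted p under 0.05 and at least 2-fold, where the shares of all genes were the 6.68% and 7.72% given above.

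The comparison of p53+/m with p53+/- HSC at 12 mo asked how HSC RNA differs between the 2 p53 genotypes in midlife. None of the 41 genes passed by limma in either direction, against 0.0888% of all genes higher in p53+/m and 0.129% lower. At an unadjusted p under 0.05 and at least 2-fold, 1 gene was higher and 0 lower, against 1.71% of all genes higher and 1.86% lower. That gene was Atm, the kinase that responds to double-strand breaks and phosphorylates p53: it read 7.50 and 7.44 in p53+/m, against 6.15 and 5.23 in p53+/- HSC (difference 1.78, SE 0.36, adjusted p = 0.129). WT HSC of 12 mo read 6.98 and 6.58. Both p53+/- arrays were below the range of the 8 WT HSC arrays (6.58 to 8.15), and both p53+/m arrays were inside it. Atm has 1 probe set here.

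Parp2 and Xrcc6 had smaller unadjusted p by limma than Atm (0.000956 and 0.0016, against 0.00185), at differences under 2-fold. Parp2 read 9.28 and 8.84 in p53+/m, against 8.39 and 8.27 in p53+/- HSC (difference 0.73, SE 0.13, adjusted p = 0.0973). Xrcc6 read 6.41 and 6.33, against 7.13 and 7.02 (difference -0.71, SE 0.14, adjusted p = 0.122). Its p53+/m arrays lay below all 8 WT HSC arrays (6.58 to 7.48). By size, Ercc5 and Brca2 came after Atm, with differences of 1.27 and 1.36 (SE 0.61 each), at adjusted p = 0.639 and 0.587. Brca2 read 5.96 and 6.21 in p53+/m, against 3.89 and 5.55 in p53+/- HSC, whose 2 replicates differed by more than the group means. Lig1 (-0.85), Msh6 (-0.81) and Xrcc4 (-0.96) had the largest differences of their classes and adjusted p between 0.758 and 0.959. Fancc, a Fanconi core subunit, differed by 0.05.

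Against WT HSC of the same age, no gene passed in either mutant by limma. For p53+/m minus WT, 0.137% of all genes passed higher and 0.307% lower. At an unadjusted p under 0.05 and at least 2-fold, 0 of the 41 genes were higher and 2 lower, against 1.44% of all genes higher and 3.04% lower. These were Wrn, which read 5.80 and 5.21 in p53+/m and 6.31 and 6.97 in WT HSC (difference -1.14, SE 0.29, adjusted p = 0.176), and Rad54l, which read 6.47 and 5.12 in p53+/m and 6.56 and 7.34 in WT HSC (difference -1.15, SE 0.48, adjusted p = 0.473). In both genes the groups did not overlap, and for Rad54l the 2 p53+/m arrays were farther apart than the group means. The largest differences of other classes were those of Xpc (-0.86), Lig1 (-0.98), Msh6 (-0.57), Xrcc5 (-0.50) and Chek1 (-1.04), none of which passed. The Xpc arrays of p53+/m did not overlap those of WT.

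For p53+/- minus WT, 0.0807% of all genes passed higher and 0.113% lower. At the unadjusted p, 0 of the 41 genes were higher and 2 lower, against 0.888% of all genes higher and 2.21% lower, and both were kinases. Atm differed by -1.09 (SE 0.36, adjusted p = 0.423). Chek1 read 5.65 and 7.58 in p53+/-, against 7.73 and 8.46 in WT HSC (difference -1.48, SE 0.62, adjusted p = 0.602). In p53+/m HSC it read 6.98 and 7.14. The 8 WT HSC arrays ran from 6.97 to 8.81 for Chek1, and of the mutant arrays only p53+/- array A lay outside that range. Fancc read 4.67 and 5.09 in p53+/m and 5.07 and 4.60 in p53+/- HSC, against 5.66 and 5.64 in WT HSC of 12 mo, with differences from WT of -0.77 and -0.82 (adjusted p = 0.176 and 0.227). The 12 mo arrays were the highest of the 8 WT HSC arrays, which ran from 4.99 to 5.66 for Fancc. Within that range lay p53+/m array B (5.09) and p53+/- array A (5.07). In p53+/- minus WT the largest differences of other classes were those of Ercc5 (-1.03), Xrcc1 (-0.76), Pms2 (-0.31), Brca2 (-1.32) and Prkdc (-0.61), none of which passed. The 3 genotype comparisons share arrays with each other, so that these values are not independent. Of 23 cell cycle genes, 1 was lower in p53+/m than in WT HSC, against 0.307% of all genes, with a list median of -0.47. None passed in p53+/- minus WT (median -0.19) or p53+/m minus p53+/- (-0.05). The mean level of the list was 6.50 and 7.36 in p53+/-, 6.74 and 6.53 in p53+/m and 7.34 and 7.13 in WT HSC of 12 mo. Chek1 and Brca2 likewise read lower on p53+/- array A than on B, and Atm higher. The part of these genes in the repair genes' values was not tested.

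The median difference was 0.01 for p53+/m minus p53+/-, -0.07 for p53+/m minus WT and -0.20 for p53+/- minus WT over the 41 genes, and 0.01, -0.01 and -0.02 over all genes. In p53+/- minus WT, 31 of the 41 genes were negative (75.6%), as were 65.8% of all genes. Some values here rest on 1 WT array: Ercc5 read 6.02 and 6.15 in p53+/- HSC, against 6.12 on WT 12 mo array A and 8.11 on array B, and Xrcc1, the scaffold of single-strand break repair, read 5.01 and 5.03 in p53+/- HSC, against 5.04 and 6.52 in WT HSC. Without WT array A both were lower in p53+/- HSC (Ercc5 -2.03, adjusted p = 0.0326; Xrcc1 -1.50, adjusted p = 0.0108), and Lig3, the ligase that works with Xrcc1, was higher in each mutant. Msh6 read 8.49 and 9.11 in p53+/m, against 10.19 and 8.54 in WT HSC; its difference of -0.57 was -1.39 without WT array B (adjusted p = 0.031) and 0.26 without array A.

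**Figure D4:**
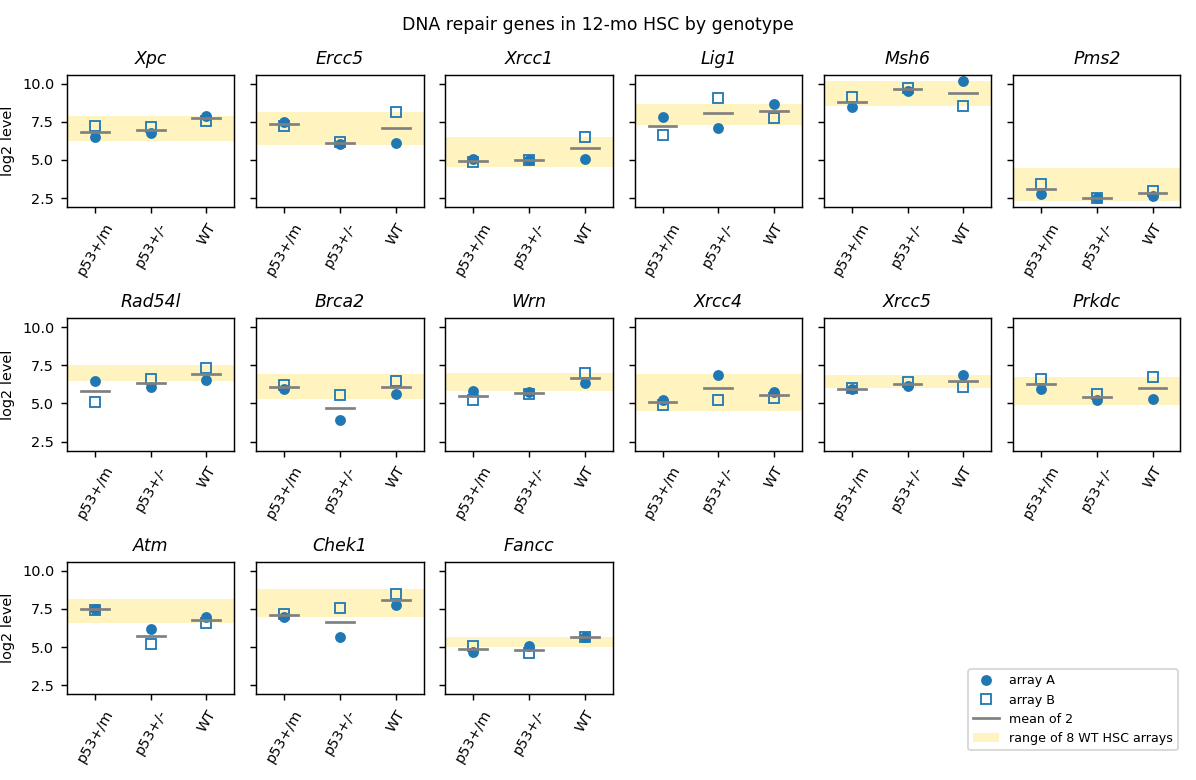
Log2 level (y axis) of 15 DNA repair genes in 12 mo HSC by genotype (x axis), with array A as filled circles, array B as open squares, the mean of 2 arrays as a grey bar and the range of the 8 WT HSC arrays of all ages as a yellow band. Atm lies at 6.15 and 5.23 in p53+/- HSC, under the band, and the 2 WT arrays of Ercc5 lie at 6.12 and 8.11.

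The spread between replicates differed among groups. The SD between arrays A and B, as the root mean square over the 41 genes, was 0.37 in p53+/m and 0.50 in p53+/- HSC, 0.36, 0.41, 0.65 and 0.28 in WT HSC of 2, 6, 12 and 21 mo, and 0.18 in WBM, so that the 12 mo WT group, the WT side of both comparisons with a mutant, was the widest. Genes whose WT 12 mo arrays were farthest apart were Rad23b (10.60 and 7.21), Ercc5 (6.12 and 8.11), Msh6 (10.19 and 8.54), Lig3 (8.30 and 6.75) and Xrcc1 (5.04 and 6.52). Of the genes above log2 5 on every array, the narrowest ranges over the 14 arrays were those of Atr, the kinase that responds to stalled forks, at 6.81 to 7.80, and Parp2, a sensor of strand breaks, at 8.23 to 9.28.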

How the data were processed

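RNA was hybridized to 14 Affymetrix MOE430A arrays, 2 in each of 7 groups. The deposited values are on the log2 scale; the authors scanned the arrays in MAS 5.0 and summarized each probe set by GC-RMA. The version of GCRMA is not given in the sources used here, nor is it stated that the arrays were normalized together. The 22626 probe sets were used as given, without 64 controls and with no filter on low values. Array medians lay between 3.93 and 4.10. The probe annotation supplied for the series names 20380 probe sets with 1 symbol, 691 with several and 1555 with none, and only the first kind was read.

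Tests were run in limma 3.58.1 (under R 4.3.3), fitting with lmFit and moderating with eBayes, and p-values were adjusted by Benjamini-Hochberg across the 22626 probe sets, and a call needed an adjusted p under 0.05 and a 2-fold difference. Age was a quadratic trend over 8 WT HSC arrays, contrasted between 21 and 2 mo; HSC against WBM used group means over 10 WT arrays, and genotypes group means over 12 HSC arrays. The fits were tested on simulated data, with 200 probe sets changed by known amounts. At a log2 change of 1, 27 of 67 were recovered with age, 18 of 67 in HSC minus WBM and 18 of 67 in p53+/m minus p53+/-. At a log2 change of 2 these were 53, 51 and 57 of 67. A summed level is the log2 of the sum of linear levels over a list. Named genes are those that passed, those at an unadjusted p under 0.05 and 2-fold, and the one with the largest difference in each class; others named were chosen after their values were seen. The genes, classes and lists were chosen with earlier results of these data known. Alternatives were a replicate block, quantile normalization, a filter on low values, no fold criterion, the mean of a gene's probe sets, other sets of arrays in the fit, and leaving out each array. The number of arrays, 2 a group, limits the precision.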

Additional observations from a re-analysis of the deposited data

How the results depend on the processing

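The age calls were the least stable. Against 1 repair gene higher and 1 lower at 21 mo, the filter on low values gave 2 higher (Rad23b, Fancf) and 4 lower (Ercc3, Xab2, Rad52, Blm), the mean of a gene's probe sets 3 lower, group means over 12 HSC arrays 3 lower (Xab2, Pms2, Rad52), without Ercc3 (adjusted p = 0.0547), the fit without both 12 mo arrays 2 higher and 5 lower, and quantile normalization 0 lower. Leaving out 1 array gave 0 to 2 higher and 0 to 6 lower: 0 of each without any one of the 2, 6 or 21 mo arrays, and 2 and 6 without WT 12 mo array B. In HSC minus WBM, leaving out 1 array gave 2 higher, against 4, and 8 to 11 lower, against 13. In p53+/m minus WT it gave 0 to 1 higher and 0 to 1 lower, and in p53+/- minus WT 0 to 1 higher and 0 to 2 lower, against 0 of each; the calls came without a WT 12 mo array (Lig3, Xrcc1 and Ercc5 without array A, Msh6 without array B). No alternative gave a call in p53+/m minus p53+/-. The cause was not tested.

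With the letter as a replicate block, 0 repair genes were higher and 0 lower with age, 3 and 12 in HSC minus WBM, and 0 in each genotype comparison. The labels do not say that the letters pair the arrays; the correlation of A minus B over all probe sets ran from -0.31 to 0.16 between groups.

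Signs turned for 4 named genes, none of them called. Fancc in p53+/m minus p53+/- (0.05) was -0.0033 after quantile normalization, -0.18 without p53+/- array B and -0.16 without p53+/m array B, within a range of -0.18 to 0.28 over the arrays left out. Lig1 in the same comparison (-0.85) ran from -1.82 without p53+/- array A to 0.12 without array B, Msh6 in p53+/m minus WT (-0.57) ran from -1.39 without WT array B to 0.26 without array A, and Prkdc in p53+/- minus WT (-0.61) ran from -1.33 without WT array A to 0.10 without array B. Genes near background, such as Pms2 and Msh3, have differences that depend on the floor of the method.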
